A study of Mus musculus with 12 samples.

Results

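Cell cycle and DNA replication genes were followed here as a set of 38, picked by gene symbol from the 46095 genes of a read count table over 12 mouse liver libraries. Of the 38, 13 act at the entry into S phase or in DNA synthesis, 23 act in G2 and mitosis, 1 is a G1 cyclin (Ccnd1) and 1 (Melk, a kinase) was placed in neither group. The libraries were made from the total RNA of hepatocellular carcinomas (HCC) induced with diethylnitrosamine (DEN), a carcinogen that hepatocytes turn into a DNA-alkylating agent. In 7 of them the mice were Pck1-null (KO) and in 5 they were wild type (WT), and the carcinogen and the tissue were shared by both groups. Pck1 encodes phosphoenolpyruvate carboxykinase, an enzyme of glucose synthesis, and the comparison asked how its loss bears on the tumour transcriptome. The labels give no sex, age, allele, strain, batch or pairing, and do not say whether the libraries came from separate animals, from 1 tumour each or from pools, so p-values measure only the spread between these samples.

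Adult hepatocytes rest outside the cell cycle, and cyclin D drives them past the restriction point when they are called to divide. Active cyclin D and cyclin E kinases release E2F factors, which turn on the genes that license origins and build DNA, among them the MCM helicase and the enzymes of nucleotide synthesis. A second wave follows in G2, when FOXM1 and the MuvB complex switch on cyclin B, the spindle kinases and the checkpoint and anaphase genes. The second wave is dense in cells that are about to divide, and in a bulk sample more cells of a type and more RNA per cell cannot be told apart.

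The promoters of both waves carry known elements, and 5 of them are printed here because their genes recur in the results: the helicase genes Mcm5 and Mcm6 for the first wave, and Ccnb2, Plk1 and Top2a for the second. They were picked after the motif search. Each is the RefSeq window of GRCm38.p6 from 250 bases before to 50 bases after the annotated start, read 5′ to 3′ on the gene's strand. Capitals mark E2F matches in the first 2 sequences and matches of the cell cycle homology region (CHR) in the other 3. The windows lie at chr8:75109259-75109558 on the plus strand (Mcm5), chr1:128359656-128359955 on the minus strand (Mcm6), chr9:70421505-70421804 on the minus strand (Ccnb2), chr7:122159185-122159484 on the plus strand (Plk1) and chr11:99024140-99024439 on the minus strand (Top2a).
Mcm5: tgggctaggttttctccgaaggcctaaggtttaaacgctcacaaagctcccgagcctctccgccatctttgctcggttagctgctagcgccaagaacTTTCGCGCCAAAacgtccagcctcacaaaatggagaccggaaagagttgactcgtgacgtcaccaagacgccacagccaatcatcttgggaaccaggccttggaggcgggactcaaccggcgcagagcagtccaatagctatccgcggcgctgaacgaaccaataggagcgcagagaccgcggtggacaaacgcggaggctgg
Mcm6: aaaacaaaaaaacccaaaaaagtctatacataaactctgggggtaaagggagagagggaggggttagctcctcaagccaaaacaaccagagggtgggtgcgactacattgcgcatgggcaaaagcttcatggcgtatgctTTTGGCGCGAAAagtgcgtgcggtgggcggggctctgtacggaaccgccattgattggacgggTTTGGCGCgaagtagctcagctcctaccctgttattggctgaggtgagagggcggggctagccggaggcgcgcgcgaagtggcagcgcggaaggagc
Ccnb2: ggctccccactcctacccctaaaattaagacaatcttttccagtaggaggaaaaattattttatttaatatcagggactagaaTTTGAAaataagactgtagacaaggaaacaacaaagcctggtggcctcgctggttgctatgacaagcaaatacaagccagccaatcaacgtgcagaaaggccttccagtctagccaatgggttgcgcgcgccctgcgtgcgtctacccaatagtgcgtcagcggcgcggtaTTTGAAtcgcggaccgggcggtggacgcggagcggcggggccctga
Plk1: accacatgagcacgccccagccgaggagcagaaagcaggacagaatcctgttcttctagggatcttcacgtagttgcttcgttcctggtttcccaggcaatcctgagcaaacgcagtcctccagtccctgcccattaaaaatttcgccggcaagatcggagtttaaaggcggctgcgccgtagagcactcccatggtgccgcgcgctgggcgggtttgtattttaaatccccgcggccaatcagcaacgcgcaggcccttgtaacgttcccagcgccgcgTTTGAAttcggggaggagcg
Top2a: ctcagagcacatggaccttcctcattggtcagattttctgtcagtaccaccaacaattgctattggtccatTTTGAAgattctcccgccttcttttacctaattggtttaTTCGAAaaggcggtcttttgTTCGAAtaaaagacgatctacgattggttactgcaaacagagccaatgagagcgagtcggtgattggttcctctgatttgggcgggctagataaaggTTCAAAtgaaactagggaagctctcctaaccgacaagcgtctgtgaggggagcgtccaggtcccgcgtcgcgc
The run in capitals of Mcm5 holds 2 overlapping E2F matches on opposite strands. Mcm6 has 3 E2F matches, 2 of which overlap in the first run. Ccnb2 has 2 CHR matches, 1 of them near the start site, Plk1 has 1 near its start, and Top2a has 4.

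The motifs searched on both strands were TTTCCCGC, TTTCGCGC, TTTGCCGC and TTTGGCGC for E2F, TTTGAA and TTCGAA for CHR, and CCAAT for the CCAAT box. E2F letters stood in 4 of the 12 windows of S phase genes (of Mcm3, Mcm5, Mcm6 and Mcm7), in 1 of the 19 windows of mitotic genes (of Cdk1) and in 2.26% of the 32851 RefSeq windows of the same length. CHR letters stood in 15 of the 19 mitotic windows, against 3 of the 12 S phase windows and 19.2% of all windows. CCAAT stood in 17 of the 19 mitotic windows, 9 of the 12 S phase windows and 37.4% of all windows. The windows covered 11 of the 13 S phase genes and 18 of the 23 mitotic genes, and Prc1 and Mcm7 each had 2 windows. Among these windows a CCAAT match overlapped an E2F match in 1 window and a CHR match in 1. Cell cycle genes outside the 38 showed the same letters, with E2F in 15 of 35 S phase windows against 3 of 43 mitotic windows, and CHR in 4 of 35 S phase windows against 29 of 43 mitotic windows. A match is a string of letters and was not tested as a binding site.

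**Figure D1:**
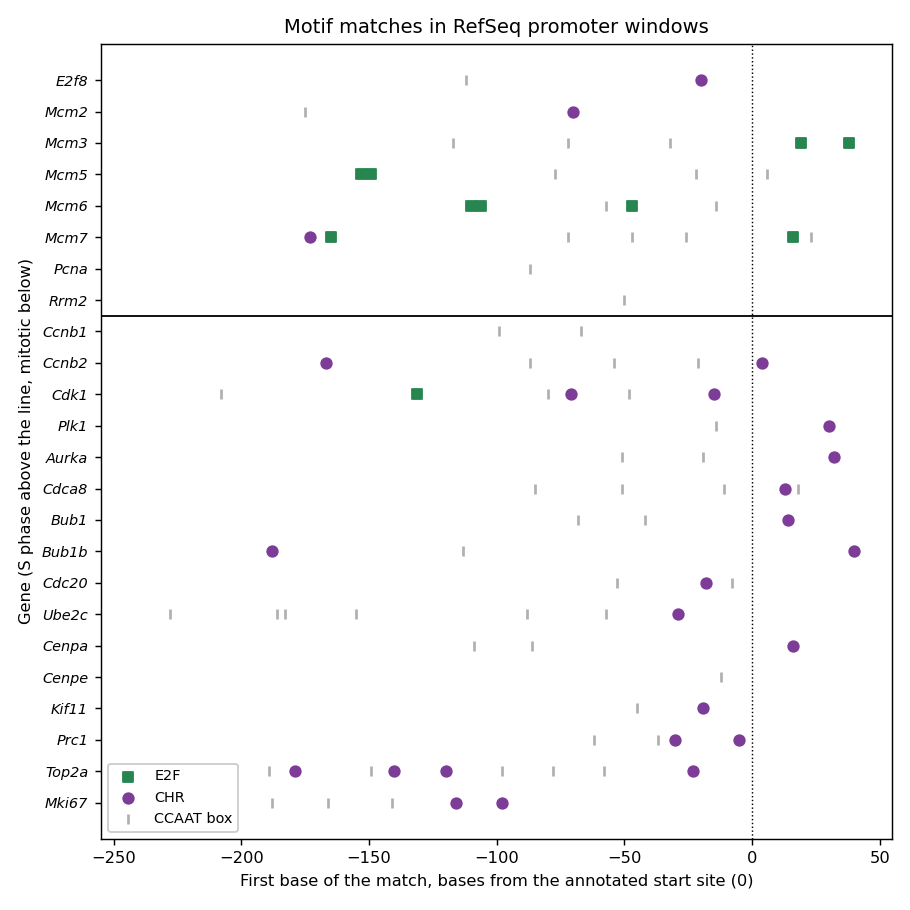
Matches of E2F (green squares), CHR (purple circles) and CCAAT (grey bars) in the RefSeq promoter windows of the cell cycle genes, by the distance of the match's first base from the annotated start site in bases. S phase genes are above the line and mitotic genes below it, and genes without a match are not drawn. E2F matches are on Mcm3, Mcm5, Mcm6, Mcm7 and Cdk1, while CHR matches are on most of the mitotic genes.

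Total counts ran from 17462102 to 46747125 per library. KO 4, KO 5, KO 6, WT 2 and WT 5 had at least 43071365 and are called the deeper libraries, and the other 7 are called the shallower ones. Xist, which coats the inactive X chromosome, was between 86.6 and 169 CPM in KO 1, KO 2, KO 3, KO 5, KO 6 and WT 4 and at most 0.573 CPM in the others. CPM stands for counts scaled by edgeR to a common library size. The 4 Y-linked genes followed had 0 to 5 reads together in the libraries high in Xist and 1463 to 5901 in the others. By these reads the first libraries are female in type and the others male. The types are uneven across the genotypes, so sex and genotype cannot be fully told apart. Pck1 was at 219, 709, 1167, 111, 146, 329 and 177 CPM in KO 1 to KO 7, and at 1696, 5598, 5599, 1063 and 5822 CPM in WT 1 to WT 5. KO 3 lay above WT 4, and the log2 fold change was -3.28 (SE 0.67), with an adjusted p of 0.170 by edgeR's quasi-likelihood test and an exact two-sided permutation p of 0.00379 for mean log2 CPM over 792 regroupings. The hepatocyte marker Alb was high in every library, between 31860 and 112979 CPM in KO and between 31612 and 140779 CPM in WT.

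All 38 genes passed the filter on low counts, and all 38 had a fitted fold change above 0 in KO over WT with TMM scaling, where E2f1 and Pcna were near 0 and turned to -0.014 and -0.011 under upper quartile scaling. Of the 14666 genes tested, 53.7% had a fold change above 0. The number above 0 fell to 31 of the 38 with limma-voom with sample weights, beside 51.4% of all genes, to 33 without KO 2, beside 53.6%, and to 33 without WT 3, beside 55.4%. Within the 5 deeper libraries it was 22 of the 38, beside 55.2% of all genes. Their median log2 fold change was 0.66, against 0.03 over all genes tested. None of the 38 passed an adjusted p of 0.05 in edgeR's quasi-likelihood test with Benjamini-Hochberg adjustment, where 0.0% of all genes passed, and DESeq2 and limma-voom passed none of the 38 either. DESeq2 passed 3.33% of all genes, limma-voom 14.5% with sample weights and 0.0341% without. Their adjusted p-values lay between 0.264 and 0.994. At an unadjusted p under 0.05, 4 of the 38 were higher in KO (Mcm4, Mcm6, Mcm7 and Ccnb2) and 0 were lower, beside 7.25% of all genes higher and 7.44% lower. In 0 of the 38 did the 7 KO libraries and the 5 WT libraries keep apart without overlap, which 1.21% of all genes did. A gene of the cell cycle shares its source cells with the others, so the 38 directions are not 38 separate observations.

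**Figure D2:**
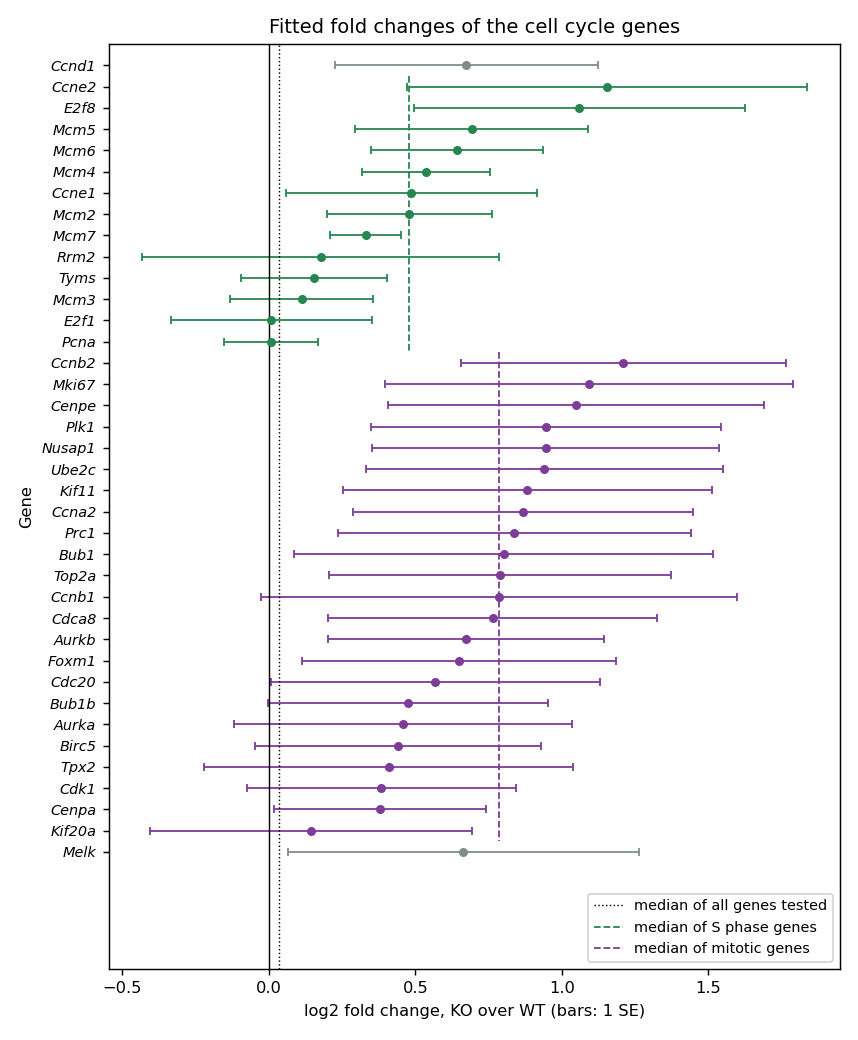
Fitted log2 fold change of KO over WT for each of the 38 genes (points) with 1 SE (bars), for the G1 cyclin and S phase genes at the top and the mitotic genes below. The dashed lines are the medians of the S phase genes (0.48) and of the mitotic genes (0.79), and the dotted line is the median of all genes tested (0.03). All points are above 0, with E2f1 and Pcna at 0.01, which turn to -0.014 and -0.011 under upper quartile scaling, and 22 of the 38 genes are above 0 within the deeper libraries.

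Ccnd1 encodes cyclin D1, which joins CDK4 and CDK6 to open the cycle. It was at 67.0, 163, 130, 91.2, 176, 24.4 and 44.4 CPM in KO 1 to KO 7, and at 108, 60.5, 41.2, 49.2 and 52.9 CPM in WT 1 to WT 5. KO 2, KO 3 and KO 5 were above every WT library and KO 6 was below every one. The log2 fold change was 0.67 (SE 0.45, adjusted p = 0.497).

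Next come the cyclins and factors of S phase entry. Ccne1, cyclin E1, ran from 2.31 over a median of 4.87 to 10.1 CPM in KO, and was at 4.91, 3.92, 2.25, 2.05 and 4.88 CPM in WT 1 to WT 5. Ccne2, cyclin E2, ran from 0.0418 over a median of 1.36 to 2.70 CPM in KO, against 0.693, 0.821, 0.351, 0.239 and 0.528 CPM in WT 1 to WT 5. In 5 of the 7 KO libraries Ccne2 was above every WT library, but in KO 1 it rested on 1 read, and its log2 fold change was 1.15 (SE 0.68, adjusted p = 0.445). E2f1, an activating E2F, ran from 3.55 over a median of 4.53 to 12.7 CPM in KO, the highest being KO 5, and was at 6.29, 4.79, 2.95, 8.25 and 5.91 CPM in WT 1 to WT 5. Its log2 fold change was 0.01 (SE 0.34), and leaving out KO 5 gave -0.33. E2f8, an E2F that represses, ran from 0.886 over a median of 2.89 to 7.85 CPM in KO, and was at 0.853, 2.81, 0.422, 2.43 and 1.31 CPM in WT 1 to WT 5. Its 4 highest libraries were all KO, with a log2 fold change of 1.06 (SE 0.57, adjusted p = 0.400).

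The 6 helicase subunits, which load at origins as a ring and unwind the DNA, held 3 of the 4 genes with an unadjusted p under 0.05. Mcm7 was at 21.8, 28.2, 23.8, 21.2, 28.5, 23.4 and 23.9 CPM in KO 1 to KO 7, and at 19.7, 21.3, 20.7, 15.1 and 20.2 CPM in WT 1 to WT 5. In 6 of the 7 KO libraries it was above every WT library, with KO 4 just under WT 2. Its log2 fold change was small and tightly measured, at 0.33 (SE 0.12), with an unadjusted p of 0.0186 and an adjusted p of 0.264 by edgeR's quasi-likelihood test. Mcm4 was at 9.04, 14.6, 11, 8.15, 11, 7.11 and 6.44 CPM in KO 1 to KO 7, and at 7.89, 6.52, 5.27, 5.72 and 7.72 CPM in WT 1 to WT 5. The first 5 KO libraries were above every WT library, and the log2 fold change was 0.54 (SE 0.22, adjusted p = 0.295). Mcm6 was at 12.7, 24.6, 32.6, 21.9, 21.8, 15.2 and 17.4 CPM in KO 1 to KO 7, and at 17.8, 15.1, 5.27, 12.8 and 15.8 CPM in WT 1 to WT 5. KO 2 to KO 5 were above every WT library, WT 3 lay far under the rest, and the log2 fold change was 0.64 (SE 0.29, adjusted p = 0.338).

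The other 3 subunits overlapped more. Mcm2 ran from 9.76 over a median of 14.5 to 26.3 CPM in KO, against 14.0, 10.1, 7.17, 6.77 and 16 CPM in WT 1 to WT 5 (log2 fold change 0.48, SE 0.28). Mcm5 ran from 5.74 over a median of 9.56 to 21.2 CPM in KO, against 7.94, 9.60, 3.23, 4.15 and 10.6 CPM in WT 1 to WT 5 (log2 fold change 0.69, SE 0.40). Only KO 2 and KO 3 exceeded every WT library in Mcm5. Mcm3 ran from 7.99 over a median of 11.9 to 18.1 CPM in KO, against 12.3, 13.1, 6.82, 9.30 and 13.8 CPM in WT 1 to WT 5 (log2 fold change 0.11, SE 0.24), so its groups lay on top of each other. The mean log2 CPM of the 6 subunits was 3.82 in KO, with an SD of 0.37 over 7 libraries, and 3.35 in WT, with an SD of 0.43 over 5.

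The 3 genes of DNA synthesis had fitted folds near 0, with errors of unlike size. Pcna, the sliding clamp of the replicative polymerases, ran from 29.4 over a median of 33.7 to 43.2 CPM in KO, against 31.0, 43.9, 25.1, 29.1 and 43.1 CPM in WT 1 to WT 5. No KO library exceeded WT 2, and the log2 fold change was 0.01 (SE 0.16). Tyms, thymidylate synthase, ran from 5.70 over a median of 6.44 to 12.2 CPM in KO, against 9.81, 6.68, 7.31, 4.06 and 5.96 CPM in WT 1 to WT 5 (log2 fold change 0.15, SE 0.25). Rrm2, the regulated subunit of ribonucleotide reductase, was at 5.15, 36.8, 30.9, 15.6, 5.12, 5.82 and 4.95 CPM in KO 1 to KO 7, and at 13.5, 14.4, 3.37, 17.4 and 17.1 CPM in WT 1 to WT 5. KO 2 and KO 3 stood above all WT libraries, while KO 1, KO 5, KO 6 and KO 7 were under all WT libraries but WT 3. Its log2 fold change of 0.18 (SE 0.61) had the widest error of these 3 genes.

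The mitotic genes had a median log2 fold change of 0.79, against 0.48 for the S phase genes, and wide errors. Their regulators come first. Foxm1, the factor that drives the G2 programme, ran from 0.753 over a median of 2.31 to 6.25 CPM in KO, against 3.09, 2.03, 0.422, 1.19 and 2.57 CPM in WT 1 to WT 5 (log2 fold change 0.65, SE 0.53). Cdk1, the kinase of mitotic entry, ran from 2.76 over a median of 5.17 to 17.1 CPM in KO, against 7.09, 6.52, 2.25, 4.06 and 7.95 CPM in WT 1 to WT 5 (log2 fold change 0.38, SE 0.46). The KO median of Cdk1 was thus within the range of the WT libraries, and the highest library was KO 2. Ccna2, cyclin A2, ran from 1.97 over a median of 4.87 to 16.9 CPM in KO, against 8.85, 3.95, 1.48, 1.91 and 5.94 CPM in WT 1 to WT 5 (log2 fold change 0.87, SE 0.58). Ccnb1, cyclin B1, ran from 1.21 over a median of 2.19 to 11.8 CPM in KO, against 5.76, 2.51, 0.0703, 0.906 and 5.03 CPM in WT 1 to WT 5 (log2 fold change 0.79, SE 0.81), where the value in WT 3 is 1 read. Both cyclins exceeded every WT library in KO 2, KO 3 and KO 4.

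Ccnb2, cyclin B2, had the largest fitted fold of the 38. It was at 1.51, 9.64, 11.8, 8.83, 3.94, 3.08 and 3.16 CPM in KO 1 to KO 7, and at 3.20, 2.56, 0.984, 1.24 and 4.85 CPM in WT 1 to WT 5. KO 2, KO 3 and KO 4 were above every WT library, and the other 4 KO libraries lay among the WT values. The log2 fold change was 1.21 (SE 0.56), with an unadjusted p of 0.0492 and an adjusted p of 0.338 by edgeR's quasi-likelihood test.

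Kinases of the spindle and its checkpoint came next. Plk1, the polo kinase that acts from mitotic entry to cytokinesis, was at 1.93, 12.9, 5.83, 7.74, 2.30, 3.15 and 3.73 CPM in KO 1 to KO 7, and at 3.41, 3.10, 0.422, 1.53 and 5.33 CPM in WT 1 to WT 5 (log2 fold change 0.95, SE 0.60). Aurka, the centrosome kinase, ran from 0.544 over a median of 2.57 to 8.72 CPM in KO, against 3.25, 3.08, 1.19, 1.24 and 5.23 CPM in WT 1 to WT 5 (log2 fold change 0.46, SE 0.58). KO 1 was the lowest library of all 12 for Aurka and KO 2 the highest. The chromosomal passenger genes Aurkb (kinase), Birc5 (survivin) and Cdca8 (borealin) had log2 fold changes of 0.67 (SE 0.47), 0.44 (SE 0.49) and 0.76 (SE 0.56). Cdca8 reached 5.87, 9.88 and 5.48 CPM in KO 2, KO 3 and KO 4, while the other KO libraries ran from 0.931 to 2.69 CPM and the WT libraries from 1.33 to 3.01 CPM. The checkpoint kinases Bub1 and Bub1b had log2 fold changes of 0.80 (SE 0.72) and 0.48 (SE 0.48), and Bub1 rested on 2 reads in KO 1.

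Genes of anaphase, kinetochores and the spindle complete the mitotic set. Cdc20, which activates the anaphase-promoting complex, was at 3.43, 25, 11.7, 11, 5.56, 5.04 and 5.61 CPM in KO 1 to KO 7, and at 5.92, 8.12, 1.83, 2.96 and 13.3 CPM in WT 1 to WT 5. Only KO 2 exceeded WT 5 in Cdc20. Ube2c, the ubiquitin-conjugating enzyme of the same complex, ran from 2.22 over a median of 4.03 to 17.2 CPM in KO, against 5.87, 4.38, 1.48, 1.57 and 6.92 CPM in WT 1 to WT 5 (log2 fold change 0.94, SE 0.61). Cenpa, the centromeric histone, and Cenpe, a kinetochore motor, had log2 fold changes of 0.38 (SE 0.36) and 1.05 (SE 0.64). The spindle genes Kif11, Prc1, Tpx2 and Nusap1 had log2 fold changes of 0.88, 0.84, 0.41 and 0.95, with SEs from 0.59 to 0.63. Kif20a, a kinesin of the late spindle, had the smallest log2 fold change of the mitotic genes, 0.14 (SE 0.55), and WT 5 at 9.51 CPM was exceeded by KO 2 alone, at 13.7 CPM.

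Top2a, the topoisomerase that untangles chromosomes, was at 5.23, 26.4, 23.3, 17.1, 4.85, 5.67 and 5.74 CPM in KO 1 to KO 7, and at 13.8, 7.92, 1.97, 3.67 and 9 CPM in WT 1 to WT 5 (log2 fold change 0.79, SE 0.58). Mki67, the proliferation antigen Ki-67, was at 3.35, 18.4, 47.3, 28.9, 5.38, 6.44 and 5.39 CPM in KO 1 to KO 7, and at 12.8, 8.01, 2.67, 3.34 and 11.6 CPM in WT 1 to WT 5. For both genes KO 2, KO 3 and KO 4 were the top 3 libraries and the other 4 KO libraries fell inside the WT range. The Mki67 log2 fold change was 1.09 (SE 0.70, adjusted p = 0.479). Melk ran from 0.431 over a median of 1.13 to 2.80 CPM in KO, against 0.480, 1.48, 0.141, 0.382 and 1.51 CPM in WT 1 to WT 5 (log2 fold change 0.66, SE 0.60).

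**Figure D3:**
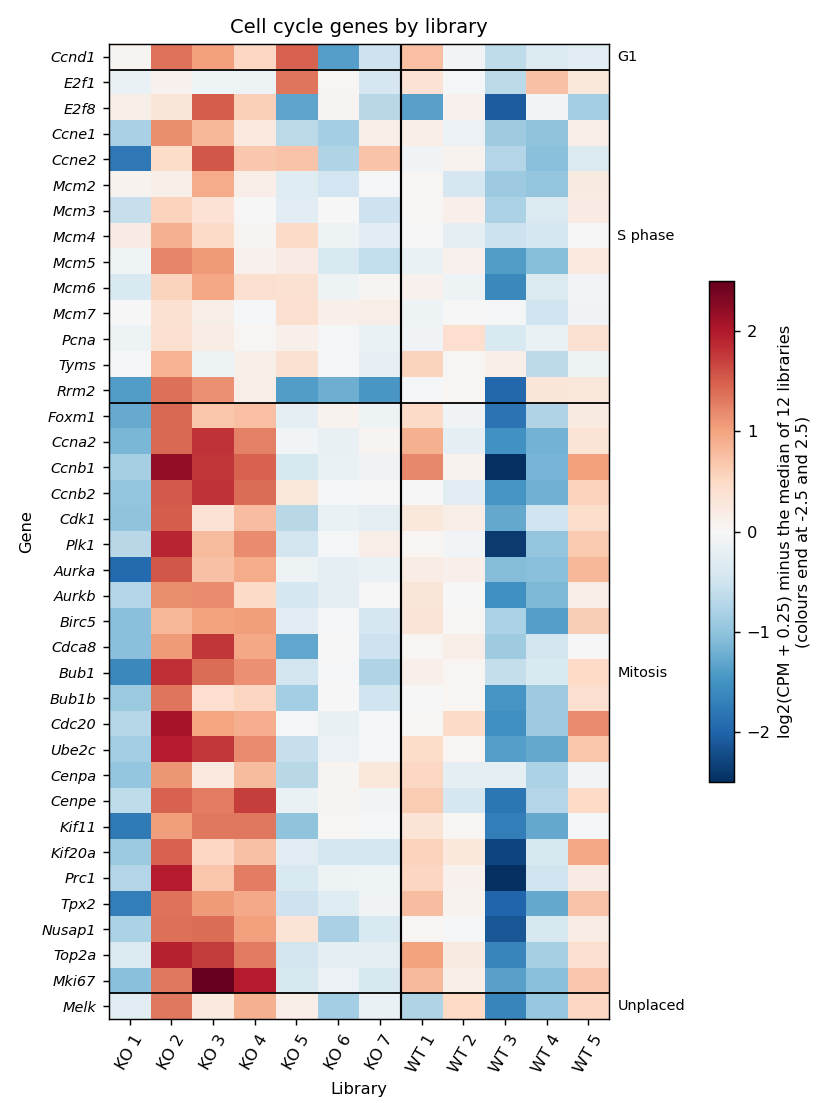
Level of each of the 38 genes (rows) in each library (columns, KO left of the line and WT right of it), as log2(CPM + 0.25) minus the gene's median over the 12 libraries. The mitotic block is red in KO 2, KO 3 and KO 4 and blue in KO 1, WT 3 and WT 4, while the S phase block is paler for most genes.

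Libraries spread further apart for the mitotic genes than for the S phase genes. The median range over the 12 libraries was 4.22-fold for the 13 S phase genes and 13-fold for the 23 mitotic genes, against 3.02-fold over all genes tested. Tested genes in the same span of mean level as the mitotic genes had a median range of 4.18-fold, and those in the span of the S phase genes 3.10-fold. The spread was as wide within WT as within KO. The median SD of log2 CPM of the mitotic genes was 1.07 in KO (n = 7) and 1.04 in WT (n = 5), and that of the S phase genes was 0.45 in KO and 0.55 in WT. The SD was larger in KO for 11 of 23 mitotic and 6 of 13 S phase genes, beside 61.0% of all genes.

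The same libraries were high or low for most mitotic genes. KO 2, KO 3 and KO 4 were the top 3 of the 12 libraries for 18 of the 23 mitotic genes and 3 of the 13 S phase genes, beside 1.07% of all genes. Taken singly, KO 2 was above every WT library for 23 mitotic genes (beside 20.9% of all genes), KO 3 for 18 (beside 23.0%) and KO 4 for 21 (beside 19.7%). All 3 were above every WT library at once for 18 mitotic and 5 S phase genes, beside 5.0% of all genes. At least 3 KO libraries exceeded all WT libraries for 18 mitotic and 6 S phase genes, beside 25.0% of all genes. KO 1 lay under the WT median for all 23 mitotic and 8 of the 13 S phase genes, beside 50.0% of all genes. WT 3 was the lowest of the 12 for 17 mitotic and 8 S phase genes. The share of all genes lowest in WT 3 was not taken, and this library had the fewest counts, 17462102. KO 2, KO 3 and KO 4 are named here from their values and form no group of the study.

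A score per library, the mean log2 CPM of the genes, puts this in 1 value. The mitotic score was 0.56, 3.30, 2.97, 2.87, 1.29, 1.57 and 1.52 in KO 1 to KO 7, and 2.16, 1.75, -0.11, 0.75 and 2.23 in WT 1 to WT 5. KO 5, KO 6 and KO 7 sat under WT 1, WT 2 and WT 5, and KO 1 under all WT libraries but WT 3. The S phase score was 2.54, 3.68, 3.73, 3.21, 3.01, 2.70 and 2.76 in KO 1 to KO 7, and 2.95, 3.01, 2.03, 2.54 and 3.02 in WT 1 to WT 5. The mean mitotic score was 2.01 with an SD of 1.03 in KO and 1.36 with an SD of 1.01 in WT. The difference of 0.65 was smaller than either SD. By the median the order turned, with a mitotic score of 1.57 in KO and 1.75 in WT. The mean S phase score was 3.09 with an SD of 0.47 in KO and 2.71 with an SD of 0.43 in WT, so that the difference was 0.38. Its medians lay closer, at 3.01 in KO and 2.95 in WT.

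The mitotic score minus the S phase score compares the waves within a library. It was -1.98, -0.38, -0.76, -0.35, -1.72, -1.13 and -1.24 in KO 1 to KO 7, and -0.79, -1.25, -2.14, -1.79 and -0.78 in WT 1 to WT 5. The highest were KO 2 and KO 4, KO 3 lay next to WT 1 and WT 5, and the lowest were WT 3 and KO 1. The mean was -1.08 with an SD of 0.63 in KO and -1.35 with an SD of 0.60 in WT, and the difference of 0.27 was well inside the spread of either genotype.

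**Figure D4:**
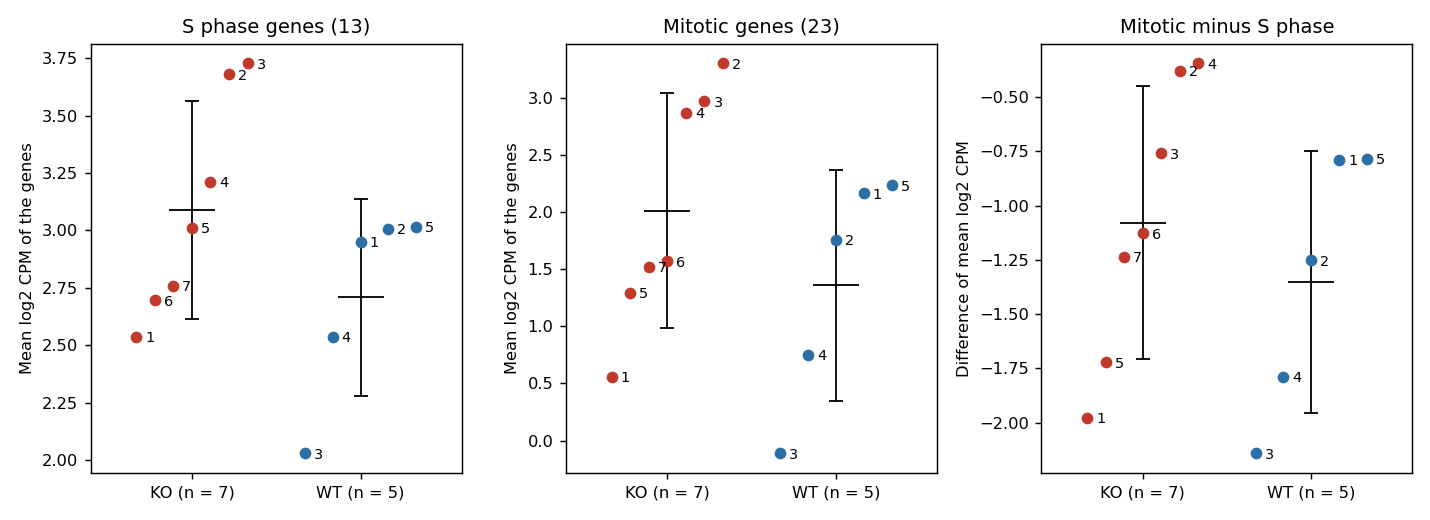
Mean log2 CPM of the 13 S phase genes (left), of the 23 mitotic genes (middle) and the mitotic minus the S phase score (right) in each library (points, numbered by replicate), with the mean and 1 SD in black. KO 2, KO 3 and KO 4 lead the mitotic score at 2.87 to 3.30, above the highest WT library at 2.23, and KO 1 (0.56) lies with WT 3 and WT 4.

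Depth and Xist class divide the libraries across the genotypes, and differences were taken within them. The mitotic score differed by 1.16 between KO and WT in the shallower libraries (4 KO, 3 WT) and by -0.085 in the deeper ones (3 KO, 2 WT). The S phase score differed by 0.67 in the shallower and by -0.038 in the deeper libraries. The sign in the deeper libraries depended on the measure. There the median fitted log2 fold change was 0.22 for the S phase genes and 0.11 for the mitotic genes. The 2 lowest WT libraries of the mitotic score, WT 3 and WT 4, were both shallower. The difference in fold change between the depth classes was tested by a genotype by depth term in edgeR. No gene of the 38 passed the adjusted threshold (smallest adjusted p 0.514), beside 0.0% of all genes. At an unadjusted p under 0.05, 4 did (Pcna, Melk, Cdc20 and Mcm5), beside 9.55% of all genes. Within the Xist-high libraries (5 KO, with WT 4 alone) the mitotic score differed by 1.19, and within the Xist-low ones (2 KO, 4 WT) by 0.69. For the genotype by Xist term, 0 of the 38 passed, beside 0.00682% of all genes, and 1 (Mcm7) had an unadjusted p under 0.05, beside 6.88% of all genes.

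Blood cell precursors divide too, and their markers were set beside the scores. The 11 neutrophil and precursor genes summed to 46.7, 53.2, 1715, 264, 37.9, 415 and 32.8 CPM in KO 1 to KO 7, and to 45.2, 32.2, 83.3, 61.9 and 41.4 CPM in WT 1 to WT 5. All 11 had a positive fold change, beside 53.7% of all genes. At an unadjusted p under 0.05 in edgeR, 9 were higher in KO, beside 7.25% of all genes. Only KO 3, KO 4 and KO 6 had a sum above the highest WT library, and the 11 genes share their source cells. Mpo, an enzyme of neutrophil precursors, was at 2.76, 4.31, 87.9, 15.2, 0.820, 16.3 and 0.482 CPM in KO 1 to KO 7, and at 0.746, 0.388, 1.90, 1.38 and 1.41 CPM in WT 1 to WT 5. Elane, the elastase of the same precursors, was at 1.38, 2.80, 60.5, 9.65, 0.532, 9.92 and 0.789 CPM in KO 1 to KO 7, and at most at 1.29 CPM in WT. Both genes were above every WT library in KO 1, KO 2, KO 3, KO 4 and KO 6, by far the most in KO 3. The mitotic scores of these 5 libraries ran from 0.56 in KO 1 to 3.30 in KO 2, with 1.57 in KO 6.

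The 7 erythroid genes summed to 184, 389, 1188, 468, 23.9, 251 and 399 CPM in KO 1 to KO 7, and to 281, 120, 614, 202 and 161 CPM in WT 1 to WT 5. KO 3 was again the highest, but WT 3, the lowest library for most mitotic genes, came next. The 9 T and NK cell genes summed to between 5.23 and 34.7 CPM in KO, highest in KO 2, and to between 9.84 and 18.4 CPM in WT. Cd3e, a defining T cell marker, was at 5.82 CPM in KO 2 and from 0.332 to 3.51 CPM in the other KO libraries, against 1.34 to 2.49 CPM in WT. The 7 B and plasma cell genes ran from 3.21 to 77.2 CPM in KO and from 22.6 to 77.9 CPM in WT, and the 4 megakaryocyte genes from 1.04 to 48.8 CPM in KO and from 1.57 to 8.71 CPM in WT.

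The 7 endothelial genes summed to 129 to 524 CPM in KO and 333 to 502 CPM in WT, and the 7 macrophage genes to 151 to 1830 CPM in KO and 378 to 1124 CPM in WT. The 8 stromal genes ran from 167 to 536 CPM in KO and from 194 to 705 CPM in WT, and the 6 cholangiocyte genes from 25.7 to 4313 CPM in KO and from 153 to 972 CPM in WT. The 4313 CPM was in KO 5, where the defining marker Krt19 was at 0.709 CPM, so other genes of the list carried that sum. Mpo, Elane, S100a8, Hba-a1, Cd3e, Cd79a, Pecam1, Adgre1, Col1a1 and Krt19 were above 0 in all 12 libraries. Without KO 3, KO 4 and KO 6, the 3 libraries whose neutrophil sum exceeded 200 CPM, the mitotic score differed by 0.31 between KO and WT and the S phase score by 0.29, and their difference by 0.02. The log2 fold change of Mki67 was then 0.06 in place of 1.09, while that of Mcm4 was 0.61 and that of Mcm7 was 0.38. KO 3 and KO 4 had the highest Mki67 of the 12 libraries and mitotic scores next to that of KO 2. Leaving them out thus lowers the Mki67 fold change whatever their neutrophil genes. The part of any of these cell types in the cell cycle differences was not tested.

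**Figure D5:**
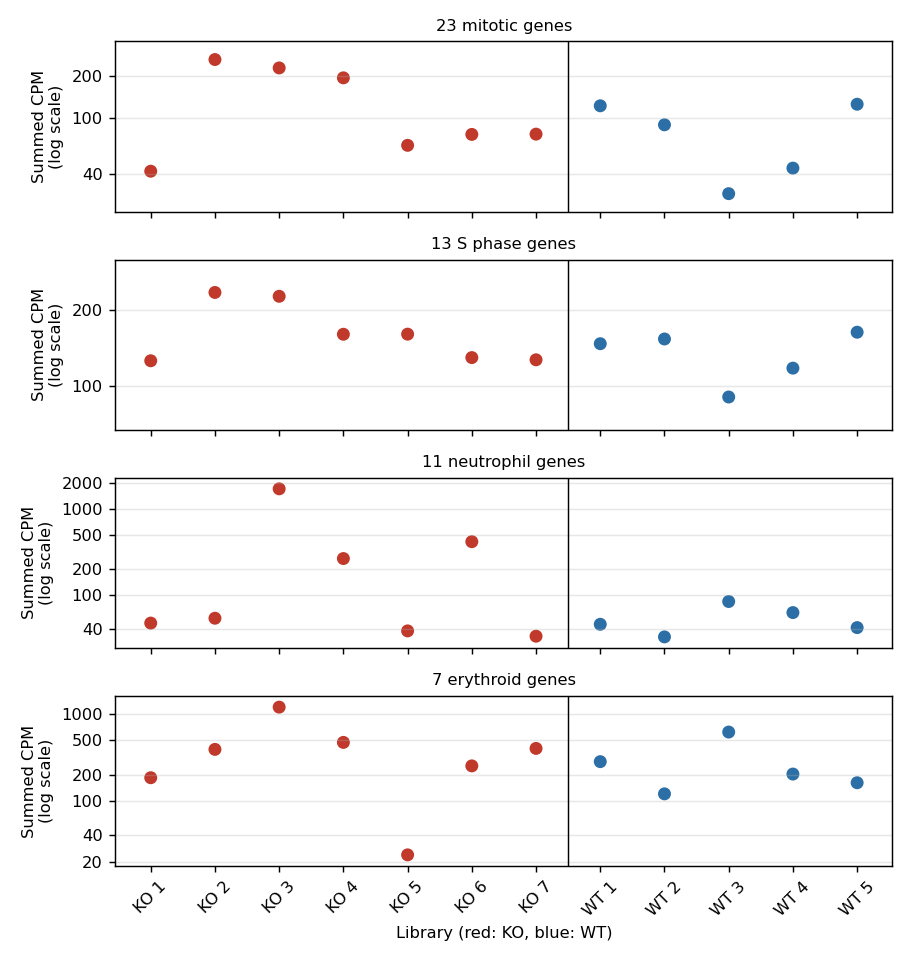
Summed CPM (log scale) of the 23 mitotic genes, the 13 S phase genes, the neutrophil genes and the erythroid genes in each library (red KO, blue WT). The mitotic sum peaks in KO 2, KO 3 and KO 4 (195 to 263 CPM), the neutrophil sum in KO 3, KO 6 and KO 4, and KO 2 is low in it at 53.2 CPM.

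Per length of the longest coding transcript, Ccnd1 and Pcna were the most abundant of the 38. Ccnd1 averaged 26.6 CPM per kb in KO and 16.7 CPM per kb in WT, and Pcna 22.8 CPM per kb in KO and 22.7 CPM per kb in WT. The helicase subunits lay lower and within a narrow band, between Mcm4 at 2.68 and Mcm7 at 8.23 CPM per kb in KO, and between Mcm4 at 1.85 and Mcm7 at 6.55 CPM per kb in WT. Cenpa was the highest mitotic gene at 5.90 CPM per kb in KO and 4.53 CPM per kb in WT. Mki67 averaged 1.64 CPM per kb in KO and 0.764 CPM per kb in WT, and Cenpe was the lowest of all at 0.267 CPM per kb in KO and 0.127 CPM per kb in WT. Low levels mean few reads: the 23 mitotic genes together had 408 reads in WT 3.

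Other genes of the cycle were taken from lists that cover both waves. Of 39 tested S phase genes outside the 38, 33 had a positive fold change (median 0.27), beside 53.7% of all genes. At an unadjusted p under 0.05 in edgeR, 5 were higher in KO, beside 7.25% of all genes, and 1 was lower, beside 7.44%. Cdt1, which loads the helicase at origins, was between 8.08 and 13.2 CPM in KO with a median of 10.1 CPM, and at 4.64, 6.68, 3.02, 5.58 and 6.71 CPM in WT 1 to WT 5. The genotypes did not overlap, beside 1.21% of all genes without overlap and 0.634% without overlap and higher in KO. Cdt1 was picked for the smallest p of its list. The log2 fold change was 0.99 (SE 0.23), with an adjusted p of 0.178 in edgeR. Mcm10, a replication initiation factor, went the other way, between 1.63 and 4.51 CPM in KO with a median of 3.18 CPM, against 2.35, 17, 7.59, 5.87 and 13.7 CPM in WT 1 to WT 5. Its log2 fold change was -1.72 (SE 0.44, adjusted p = 0.195), with only WT 1 inside the KO range. Lig1, the ligase of Okazaki fragments, and Rfc3, a clamp loader subunit, had log2 fold changes of 0.78 (SE 0.21, adjusted p = 0.195) and 0.79 (SE 0.27, adjusted p = 0.246), each with 5 KO libraries above every WT library.

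Of 42 tested mitotic genes outside the 38, 38 had a positive fold change (median 0.61), beside 53.7% of all genes. At an unadjusted p under 0.05 in edgeR, 2 were higher in KO, beside 7.25% of all genes, and 1 was lower, beside 7.44%. Mad2l1, a spindle checkpoint protein, had a log2 fold change of 0.64 (SE 0.28), and Smc2, a condensin subunit, one of 0.80 (SE 0.38). Pttg1, securin, had -0.50 (SE 0.23), with 6.70 to 15 CPM in KO and 10.5 to 20.9 CPM in WT. Cit, a kinase of cytokinesis, had the largest log2 fold change named, 2.63 (SE 1.09), which rests on KO 5 at 45 CPM, since the other KO libraries had at most 4.38 CPM and the WT libraries at most 2.29 CPM.

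A list of 10 G1 drivers also took in Mybl2, whose product works with the MuvB complex of the second wave. Of the 10 genes, 9 had a positive fold change (median 0.41), beside 53.7% of all genes. At an unadjusted p under 0.05 in edgeR, 2 were higher in KO, beside 7.25% of all genes. Mybl2, the MuvB partner B-MYB, was at 0.126, 1.88, 5.78, 3.13, 2.61, 1.21 and 1.10 CPM in KO 1 to KO 7, and at 0.373, 0.388, 0.632, 0.143 and 0.754 CPM in WT 1 to WT 5. KO 1 was the lowest of the 12 and the other 6 KO libraries were above every WT library, with a log2 fold change of 2.29 (SE 0.72, adjusted p = 0.222). Cdk6, Cdc25a and E2f2 had log2 fold changes of 0.62 (SE 0.27), 0.70 (SE 0.33) and 1.48 (SE 0.69). E2f2 was at 2.13, 6.84, 29.4, 12.7, 2.06, 4.35 and 2.24 CPM in KO 1 to KO 7, and at 2.99, 3.35, 2.95, 1.48 and 4.43 CPM in WT 1 to WT 5, so that KO 2, KO 3 and KO 4 were above every WT library.

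Inhibitors of the cycle were followed as well. Of 15 tested, 12 had a positive fold change (median 0.19), beside 53.7% of all genes. At an unadjusted p under 0.05 in edgeR, 3 were higher in KO, beside 7.25% of all genes, and 0 were lower, beside 7.44%. Cdkn1c, the kinase inhibitor p57, had a log2 fold change of 1.19 (SE 0.47), led by KO 5 at 24.8 CPM and KO 1 at 22.3 CPM, while WT ran from 3.52 to 6.57 CPM. Gadd45b, a stress gene, had 0.83 (SE 0.33), Rb1, the retinoblastoma gene, 0.54 (SE 0.23), and Cdkn2d, the inhibitor p19, 0.71 (SE 0.40) as log2 fold changes. Cdkn1a, the p53 target p21, ran from 27.7 over a median of 81.1 to 96.9 CPM in KO, against 73.7, 37.9, 27.5, 140 and 52.3 CPM in WT 1 to WT 5. Its log2 fold change was 0.07 (SE 0.40, adjusted p = 0.949). The highest library for Cdkn1a was WT 4, which is low in mitotic genes. Next came KO 4 (96.9 CPM), KO 2 (91.4 CPM) and KO 3 (87.6 CPM), the libraries that lead the mitotic score. The libraries lowest in the mitotic score, WT 3 (27.5 CPM) and KO 1 (27.7 CPM), were also the lowest in Cdkn1a.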

How the data were processed

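Raw read counts per gene and library were taken as deposited by the authors, in whole numbers without normalization. The submitters' processing notes name HISAT2 and the mm10 build, with no version. RNA was extracted with Trizol, per the labels' protocols. How the reads were counted, with what strand setting and annotation, is not given in the sources used here. An exon of 12 of the 38 genes (Ccna2, Ccnd1, Ccne2, Cdc20, E2f8, Foxm1, Kif20a, Mcm7, Nusap1, Plk1, Prc1 and Ube2c) overlaps an exon of another gene, and 4 (Ccnb1, Ccnb2, Pcna and Tyms) have RefSeq pseudogenes named after them, so these counts are uncertain to that extent. By the genotype label 7 libraries were KO and 5 were WT, numbered by accession order. The title of KO 7 begins with KP where the others have KO or ko, and only its genotype label places it in KO. No 2 libraries of a group agreed within sampling noise (smallest chi-square per degree of freedom 71.0).

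Genes were kept with filterByExpr (minimum count 10, minimum total 15), leaving 14666 of 26342 genes with any count, and were tested in edgeR 4.0.16 (R 4.3.3) with TMM scaling and robust quasi-likelihood tests, KO against WT without covariates (common biological coefficient of variation 0.492). P-values were adjusted over all genes by Benjamini-Hochberg, with a threshold of 0.05. DESeq2 1.42.0, limma 3.58.1 (voom), other scalings, filters, covariates and subsets were alternatives, and leaving out the 3 libraries high in neutrophil genes, the class terms and the counts within classes were added after seeing the data. Scores are means of log2 CPM and carry no test. On data simulated for KO against WT with 14437 genes, 50 genes were changed per size and direction, and edgeR found 38 (4-fold up), 36 (4-fold down), 20 (2-fold up) and 8 (2-fold down) of them and called 1 unchanged gene. Transcript lengths came from GENCODE M21 and promoter windows from RefSeq, and Ahsp of the erythroid list was not matched.

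The 38 genes, the lists and the tests were chosen with earlier results of these data known. Named are all 38, Pck1, up to 4 genes of the smallest p from each of the other cell cycle lists, Cdkn1a and defining cell type markers.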

Additional observations from a re-analysis of the deposited data

Results flagged for a closer look

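Samples far from the rest of their group were sought with Dixon's ratio on log2 CPM for 84 combinations of a measure and a genotype, where chance flags about 1 in 20 groups. It marked 5. E2f1 in KO 5 was at 3.67, with the nearest KO library at 2.40. Mcm6 in WT 3 was at 2.42, with the nearest WT library at 3.68. Rrm2 in WT 3 was at 1.78, with the nearest at 3.76, and Nusap1 in WT 3 was at -1.86, with the nearest at 0.44. Mcm7 in WT 4 was at 3.92, with the nearest at 4.31. Of the 5 marks, 3 fall on WT 3, the library that was the lowest of the 12 for most mitotic genes.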

How the results depend on the processing

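None of the 38 genes passed the adjusted p of 0.05 in edgeR under any alternative run, nor in DESeq2 or limma-voom. Over all genes the number past it was 0, but 1 under upper quartile scaling, without a filter and with a filter of 1 CPM in 5 libraries, 3 with depth class as a covariate, 5 with voom without weights, 489 with DESeq2 and 2121 with voom with sample weights. It was 2 within the deeper libraries, 34 within the Xist-low libraries, 6 without the 3 libraries high in neutrophil genes, and 0 to 65 when each library was left out, the 65 without KO 6. The number of the 38 with an unadjusted p under 0.05 was 4 in the main test, beside 14.7% of all genes. With either voom fit it was 1, beside 33.1% with sample weights and 14.7% without. Xist class as a covariate gave 1, beside 11.5%, and depth class 2, beside 15.6%. The deeper libraries gave 1, beside 13.3%, and the Xist-low ones 0, beside 18.1%. Without the 3 libraries it was 2, beside 14.5%. With a library left out it ran from 0 to 5. The highest count, 5, was reached without KO 1, beside 15.3% of all genes, and without KO 6, beside 19.4%. Without KO 4 the number was 2, beside 11.9%, and without WT 2 also 2, beside 4.95% higher in KO and 5.08% lower. It was 0 without WT 4, beside 6.86% of all genes higher in KO and 7.16% lower. It was 1 without KO 2, beside 14.5%, and 1 without WT 3, beside 12.2%. Without KO 3 it was also 1, beside 6.07% higher and 5.9% lower. Pck1 passed with DESeq2 (-3.28) and with voom with weights (-3.87). The cause of these shifts was not tested. Leaving out each library moved the median log2 fold change between 0.29 and 0.60 for the S phase genes and between 0.43 and 0.95 for the mitotic genes, whose lowest value came without KO 2, and the score difference between 0.21 and 0.47 for S phase, between 0.29 and 0.90 for mitotic genes and between 0.076 and 0.42 for the mitotic minus S phase score, each lowest without WT 3.

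The sign turned for 19 of the 38 genes under some alternative. The deeper libraries alone turned 16 of them, with a log2 fold change of -0.37 for Ccne1, -0.11 for Mcm2, -0.26 for Mcm3, -0.19 for Mcm5, -0.36 for Pcna, -0.83 for Rrm2, -0.067 for Ccnb1, -0.21 for Cdk1, -0.25 for Aurka, -0.10 for Aurkb, -0.24 for Bub1b, -0.57 for Cdc20, -0.045 for Ube2c, -0.57 for Kif20a, -0.25 for Tpx2 and -0.33 for Melk. The shallower libraries gave -0.41 for E2f1. The Xist-low libraries gave -0.30 for E2f1, -0.16 for Mcm3, -0.017 for Mcm5, -0.16 for Pcna, -0.17 for Tyms and -0.20 for Rrm2, and the Xist-high ones -0.41 for E2f1 and -0.092 for Rrm2. With voom with sample weights the log2 fold change was -0.18 for E2f1, -0.14 for Mcm3, -0.19 for Pcna, -0.39 for Rrm2, -0.074 for Aurka, -0.12 for Cdc20 and -0.25 for Kif20a, and without weights -0.0017 for E2f1, -0.013 for Mcm3 and -0.42 for Rrm2. Upper quartile scaling gave -0.014 for E2f1 and -0.011 for Pcna. Xist class as a covariate gave -0.34 for E2f1, -0.0031 for Pcna and -0.16 for Rrm2, and depth class -0.060 for E2f1. Without the 3 libraries Mcm3 was at -0.023, Pcna at -0.010, Rrm2 at -0.041 and Birc5 at -0.023. With a library left out, E2f1 ran from -0.33 to 0.18, Mcm3 from -0.015 to 0.21, Pcna from -0.080 to 0.11, Tyms from -0.0018 to 0.33, Rrm2 from -0.23 to 0.34 and Kif20a from -0.20 to 0.47. The lowest of these came without KO 5 for E2f1 without KO 2 for Mcm3, Tyms, Rrm2 and Kif20a, and without WT 3 for Pcna.

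Depth limits the genes of few reads, such as Ccne2 and Ccnb1, where a library can hold 1 read. Batch and tumour number are not in the labels. Neither is sex, which the Xist and Y-linked reads divide unevenly between the genotypes. No paired analysis was possible because the labels give no replicate numbers shared by the genotypes.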

Other observations

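Mki67 and Top2a are both read as marks of proliferation, but their ratio was not the same in the libraries where both were high. Mki67 over Top2a was 0.640, 0.697, 2.03, 1.70, 1.11, 1.14 and 0.939 in KO 1 to KO 7, and 0.930, 1.01, 1.36, 0.909 and 1.29 in WT 1 to WT 5. KO 2 had the highest Top2a of the 3 libraries with the top mitotic scores. In CPM it had less Mki67 than Top2a, while KO 3 and KO 4 had more Mki67. The longest coding transcript is 10.1 kb for Mki67 and 5.22 kb for Top2a. The ratio in CPM thus compares libraries and not the levels of these genes per length. The order of the genes within these 3 libraries differed too: KO 2 was the highest library for 14 of the 23 mitotic genes, KO 3 for 7 and KO 4 for 2. Neutrophil genes summed to 1715 CPM in KO 3, 264 CPM in KO 4 and 53.2 CPM in KO 2. KO 6, with 415 CPM of them, had a ratio of 1.14, inside the WT range, and the part of those cells in the ratio was not tested.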
